A study of Mus musculus with 14 samples.

Results

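The 30 genes described here are listed as genes of microglia, the resident macrophages of the brain. Their RNA was measured in mouse hippocampal cultures with and without picrotoxin. They were taken as a fixed list of symbols, and all 30 were found among the 43629 gene identifiers of the count tables. Of the 30, 26 had enough counts to be tested, and Tmem119, P2ry13, Siglech and Selplg did not. Every member is accounted for below.

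The RNA came from primary cultures of the hippocampus of wild type C57BL6 mice, taken at postnatal day 0 to 1 and grown over 14 days in vitro. Group CTRL (n = 4) received 0.1% DMSO, the solvent, for 15 h, and group PTX (n = 4) received 100 µM picrotoxin for 15 h, a blocker of GABA-A receptors that raises network activity. The libraries of each group are stated to be biological replicates. They are mixed cultures in which no cell type was sorted. L3mbtl1 ChIP-seq came from untreated hippocampus of C57BL6/129 mice at postnatal day 7 to 8, from 3 wild-type and 3 L3mbtl1-/- samples, and gave 1 list of 4677 peaks.

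Microglia depend on signalling through Csf1r, the receptor tyrosine kinase that binds Csf1 and Il34, and on the transcription factors PU.1 (Spi1) and Irf8. In the brain they survey tissue with the fractalkine receptor Cx3cr1 and the ADP receptor P2ry12, tag material with C1q complement, and clear it through Fc and Trem2-Tyrobp receptors into lysosomes. In RNA from whole cultures, transcripts of a cell type can move with the number of its cells as well as with RNA per cell. Fewer cells of a type and less RNA per cell cannot be told apart in these libraries.

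The promoters of Cd68, Trem2, Ctss and C1qc are shown because Cd68 was the 1 member that rose, Trem2 is the other member whose window holds the same AP-1 letters, and Ctss and C1qc are members whose windows hold PU.1 letters. Each is a RefSeq window (GRCm38.p6, the assembly of mm10) from 250 bases before to 50 bases after the annotated start, read 5′ to 3′ on the gene's strand. Capitals mark TGANTCA (AP-1) in Cd68 and Trem2 and ACTTCCTC, the other strand of GAGGAAGT (PU.1), in Ctss and C1qc. The windows are chr11:69666121-69666420 (minus strand) for Cd68, chr17:48346151-48346450 (plus) for Trem2, chr3:95526536-95526835 (plus) for Ctss and chr4:136892865-136893164 (minus) for C1qc.
Cd68: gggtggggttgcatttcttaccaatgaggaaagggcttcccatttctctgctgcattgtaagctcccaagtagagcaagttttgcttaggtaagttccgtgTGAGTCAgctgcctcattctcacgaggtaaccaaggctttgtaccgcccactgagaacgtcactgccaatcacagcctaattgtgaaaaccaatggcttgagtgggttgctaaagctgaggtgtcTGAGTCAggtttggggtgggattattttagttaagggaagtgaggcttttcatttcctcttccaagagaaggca
Trem2: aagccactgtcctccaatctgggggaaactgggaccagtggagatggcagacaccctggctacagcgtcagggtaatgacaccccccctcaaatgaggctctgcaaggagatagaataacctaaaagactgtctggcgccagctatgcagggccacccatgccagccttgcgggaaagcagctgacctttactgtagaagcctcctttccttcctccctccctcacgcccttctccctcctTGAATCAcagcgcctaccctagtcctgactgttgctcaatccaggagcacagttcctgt
Ctss: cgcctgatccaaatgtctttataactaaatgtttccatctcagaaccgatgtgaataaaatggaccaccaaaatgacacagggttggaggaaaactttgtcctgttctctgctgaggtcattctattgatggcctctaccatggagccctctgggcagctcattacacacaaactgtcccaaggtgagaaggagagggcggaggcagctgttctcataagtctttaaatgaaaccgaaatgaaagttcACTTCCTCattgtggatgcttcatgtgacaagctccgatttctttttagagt
C1qc: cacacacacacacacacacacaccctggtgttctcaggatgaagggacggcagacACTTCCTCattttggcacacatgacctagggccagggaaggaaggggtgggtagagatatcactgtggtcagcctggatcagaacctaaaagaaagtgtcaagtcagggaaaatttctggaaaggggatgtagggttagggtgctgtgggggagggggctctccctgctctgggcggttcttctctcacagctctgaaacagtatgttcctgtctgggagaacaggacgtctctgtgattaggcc

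Cd68 held TGANTCA at 2 places, starting at positions -149 and -24 from the start site, and Trem2 held it at position -9. Among the 26 windows of the 23 members that had one, these 2 carried the AP-1 letters, against 7.81% of all 32851 windows. The letters GAGGAAGT, searched on both strands, stood in 4 member windows, those of Apbb1ip, C1qc, Cd53 and Ctss, against 3.20% of all windows. CACGTG (E-box) stood in the windows of P2ry12 and Siglech, against 7.15% of all windows. No member window held more than 1 of the 3 motifs. A match describes letters only.

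Before the comparison, 2 libraries have to be set apart. Gene counts ran from 14524916 to 19498189 per library, but the 29 members without Csf1 together drew 1035 counts in CTRL replicate 1 and 1151 in PTX replicate 1, against 4151 to 12881 in the other 6 libraries. In CPM (counts scaled to the library size, here TMM-scaled), their summed level was 61.0, 365.5, 354.7 and 352.3 CPM in CTRL replicates 1 to 4 and 73.5, 759.7, 286.2 and 481.6 CPM in PTX replicates 1 to 4. CTRL replicate 1 and PTX replicate 1 were the lowest of their groups, PTX replicate 2 was the highest of all, and the groups overlapped.

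**Figure D1:**
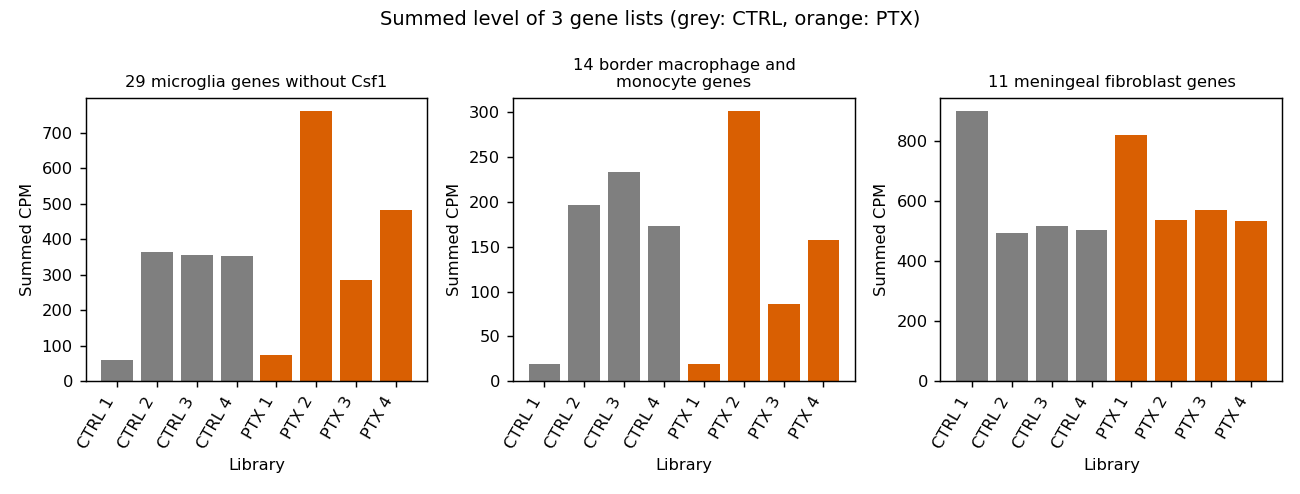
Summed CPM (vertical axes) of 3 gene lists in each of the 8 RNA-seq libraries (horizontal axes; grey bars CTRL, orange bars PTX). Both libraries numbered 1 are low for the microglia genes, at 61.0 and 73.5 CPM, and for border macrophage and monocyte genes, and high for meningeal fibroblast genes, at 899.1 and 819.5 CPM.

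Markers of several other cell types also differed in the libraries numbered 1, in differing directions. The 14 genes of border macrophages and monocytes summed to 19.8 CPM in CTRL replicate 1 and 19.0 CPM in PTX replicate 1, against 172.9 to 233.5 CPM in the other CTRL libraries and 85.8 to 300.4 CPM in the other PTX libraries. The 11 meningeal fibroblast genes went the other way, with 899.1 and 819.5 CPM in the libraries numbered 1 and 494.9 to 570.0 CPM elsewhere. Oligodendrocyte genes summed to 95.9 and 121.6 CPM in the libraries numbered 1, against 152.6 to 193.3 CPM elsewhere. Endothelial genes summed to 25.3 and 28.1 CPM there, against 44.1 to 55.8 CPM elsewhere. Astrocyte genes summed to 7183 CPM in CTRL replicate 1, within the range of the other CTRL libraries. In PTX replicate 1 they summed to 4794 CPM, below the other PTX libraries. Neuron genes summed to 6595 CPM in CTRL replicate 1, above the other CTRL libraries. In PTX replicate 1 they summed to 10610 CPM, within the range of the other PTX libraries. The 15 neutrophil and lymphocyte genes had 61 counts over all 8 libraries, and 6 of them had 0. The part of these other cells in the results below was not tested.

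In the 25 tested members without Csf1, the library order was nearly the same from gene to gene. CTRL replicate 1 was the lowest CTRL library for 24 of them, with Cd14 the exception, and PTX replicate 1 was the lowest PTX library for 25. PTX replicate 2 was the highest of all 8 libraries for 23, Ly86 being highest in PTX replicate 4 and Apbb1ip in PTX replicate 3. The mean of the other 3 CTRL libraries stood 1.41 to 12.1 times above CTRL replicate 1, with a median of 5.64.

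**Figure D2:**
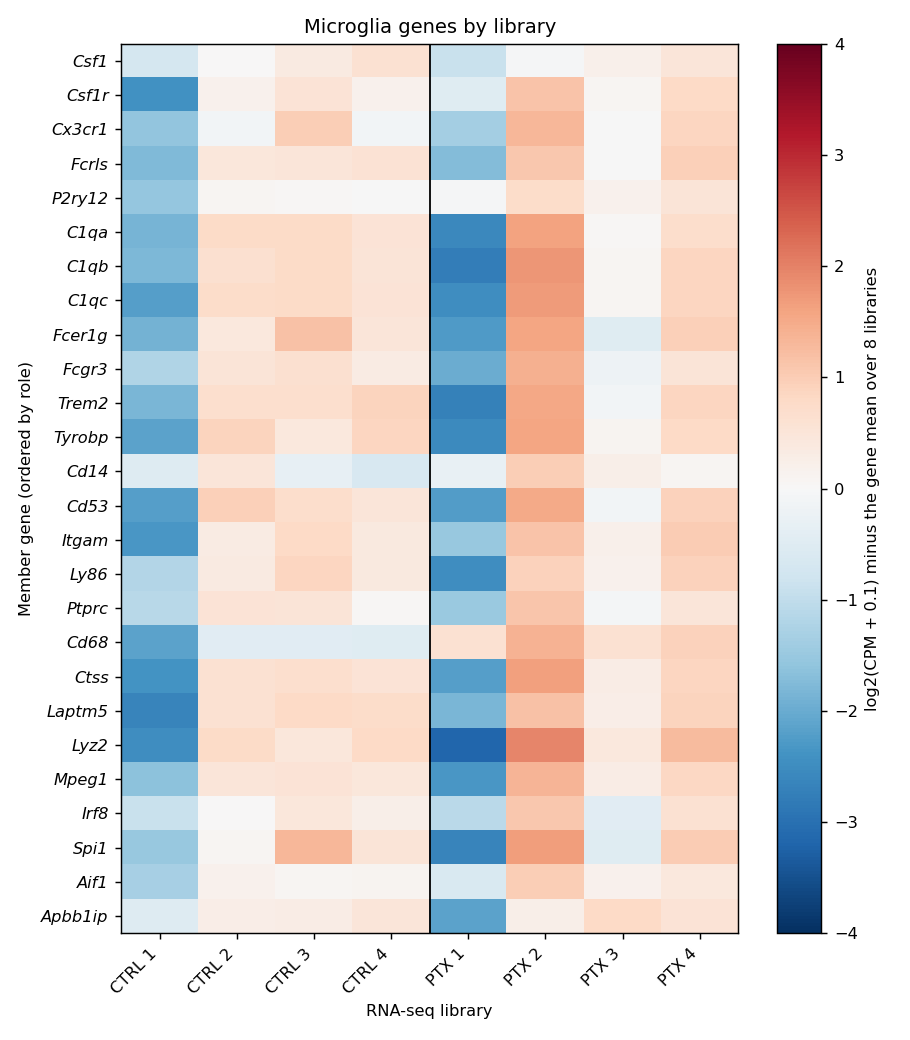
Heat map of the 26 tested microglia genes (rows, ordered by role) in the 8 libraries (columns); colour gives log2(CPM + 0.1) minus the gene's mean over the libraries, and the vertical line parts CTRL from PTX. The columns CTRL 1 and PTX 1 are blue for most rows, and Cd68 is the 1 row whose 4 PTX values all lie above its 4 CTRL values.

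Picrotoxin raised 1 of the 26 tested members, Cd68, and lowered none (edgeR quasi-likelihood test, Benjamini-Hochberg adjusted p under 0.05 over all tested genes). Over all 15959 tested genes, 19.0% rose and 20.1% fell. Of the members, 1 had an unadjusted p under 0.05, and DESeq2 also called Cd68 and no other member. The other 25 had adjusted p from 0.21 to 0.977. The standard errors of the members' log2 fold changes ran from 0.31 to 0.86, against a median of 0.14 over all genes.

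The log2 fold change was positive for 25 of the 26 and negative for Csf1, with a median of 0.24 against -0.03 over all tested genes; without CTRL replicate 1 it was positive for 13 and negative for 14, without PTX replicate 2 positive for 8 and negative for 18, and with library sizes taken from the summed members positive for 6 and negative for 20. The sign of the list's median therefore rested on those libraries and on the scaling, with values of -0.06 without CTRL replicate 1, -0.18 without PTX replicate 2 and -0.30 with the summed members. Without PTX replicate 1 the median was 0.63. The 4 PTX values lay wholly on one side of the 4 CTRL values for 1 member, Cd68, against 38.0% of all tested genes.

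**Figure D3:**
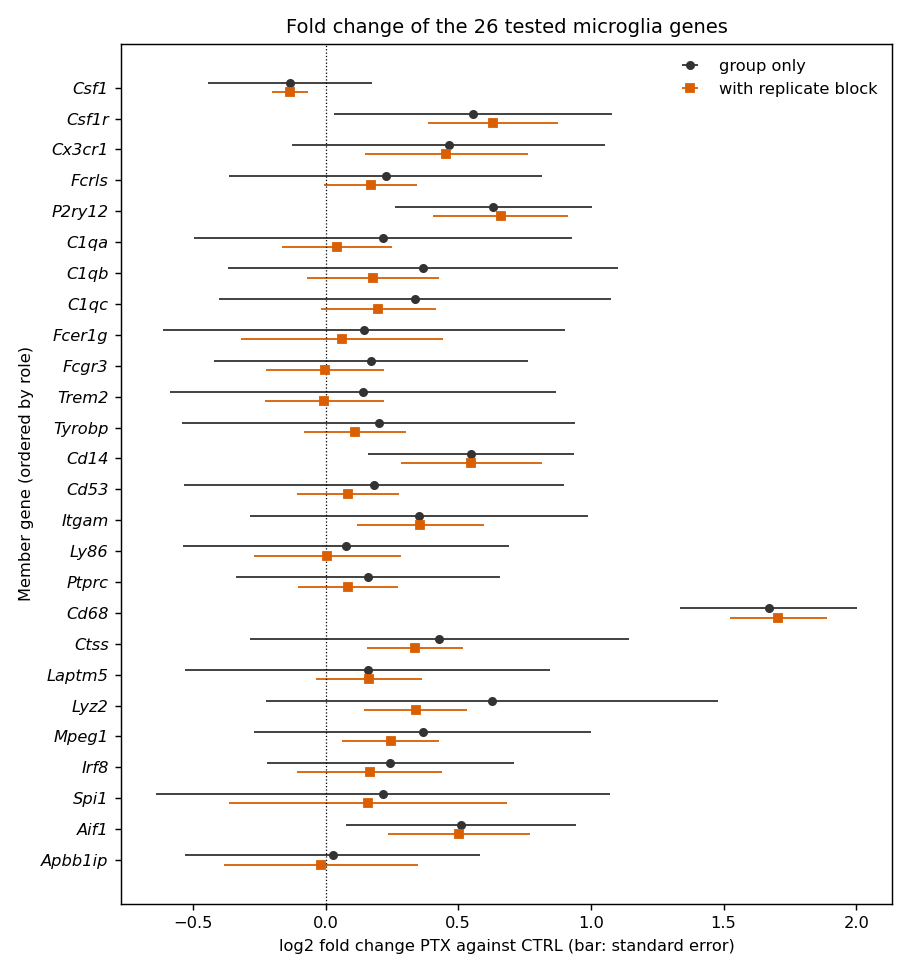
The log2 fold change of PTX against CTRL (horizontal axis; points, with bars for 1 standard error) for the 26 tested members (vertical axis, ordered by role), in the fit with group only (black circles) and in the fit with the replicate number as a block (orange squares). Cd68 stands at 1.67 and 1.71, the other members lie between -0.13 and 0.66, and the block shortens most bars.

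Among the genes of lysosome and phagocytosis, Cd68, a lysosomal membrane glycoprotein used as a marker of phagocytic macrophages, was at 3.60, 11.8, 11.6 and 11.4 CPM in CTRL replicates 1 to 4 and at 24.4, 42.7, 24.5 and 30.8 CPM in PTX replicates 1 to 4. The lowest PTX library stood above the highest CTRL library, and PTX replicate 1, low in nearly every other member, was level with PTX replicate 3. The log2 fold change was 1.67 (SE 0.33, edgeR adjusted p = 0.00298), and Cd68 was higher in PTX in 4 of 4 same-numbered pairs, as were 29.0% of all tested genes.

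Cd68 was also set against the summed counts of the list, which include Cd68 itself. As a share of all counts on the 29 members, it made up 5.89%, 3.22%, 3.28% and 3.25% in CTRL replicates 1 to 4 and 33.2%, 5.62%, 8.58% and 6.40% in PTX replicates 1 to 4. PTX replicate 2, at 5.62%, lay below CTRL replicate 1, so the shares overlapped, although each PTX share was above that of the CTRL library with the same number. With library sizes taken from the summed members and the replicate number as a block, the log2 fold change of Cd68 was 1.39 (edgeR adjusted p = 0.000579), in a fit where 4.79% of all genes rose. The same scaling without the block gave 1.78 with an edgeR adjusted p of 1, the 1 setting of 17 in which Cd68 was not called.

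**Figure D4:**
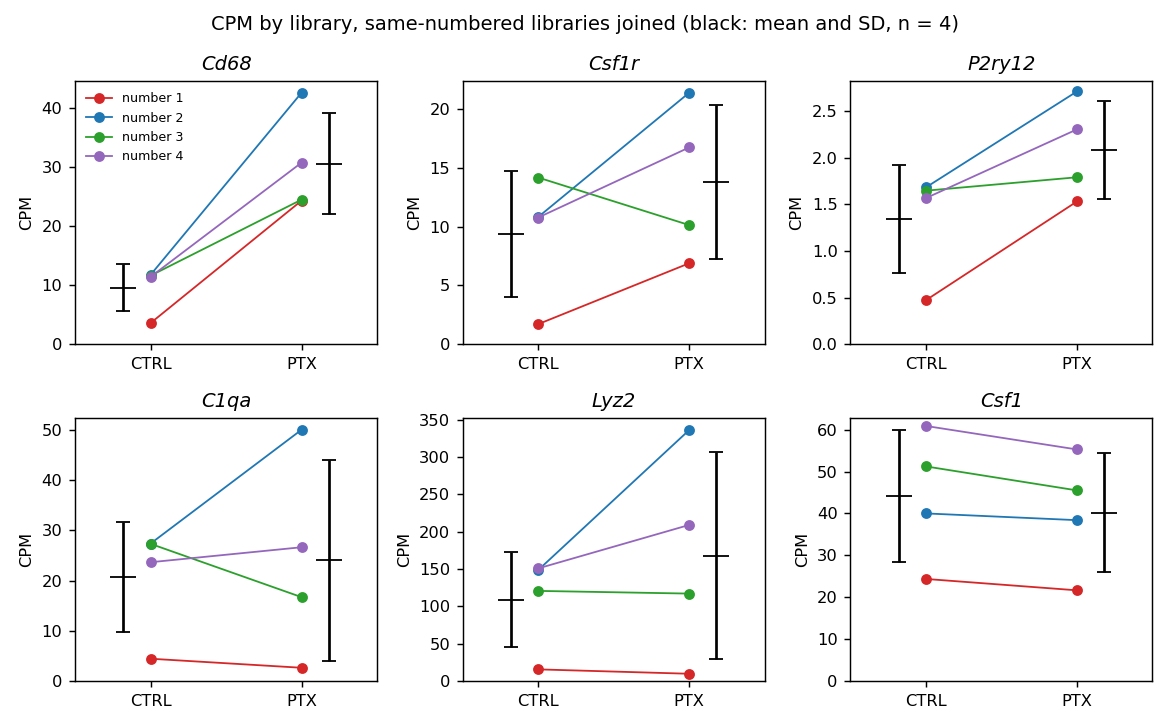
CPM (vertical axes, each from 0) of 6 members in the CTRL and PTX libraries; points are libraries, lines join libraries with the same number, and black bars give mean and SD (n = 4). Cd68 rises along all 4 lines, C1qa and Lyz2 fan out with PTX replicate 2 highest, and Csf1 is slightly lower in PTX on all 4 lines.

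The gene next to Cd68 was looked at because reads running on from it could be counted for Cd68. Eif4a1, a translation initiation factor, ends 766 bp before the start of Cd68 on the same strand. It was at 408.5, 428.5, 385.5 and 332.2 CPM in CTRL and 493.9, 524.2, 524.9 and 448.3 CPM in PTX. Eif4a1 rose as well, by a log2 fold change of 0.36 (SE 0.10, edgeR adjusted p = 0.0157), smaller than that of Cd68; whether reads running on from Eif4a1 add to Cd68 was not tested.

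The other lysosomal members did not pass the test. Ctss, the protease cathepsin S, was at 2.42, 19.9, 21.0 and 19.2 CPM in CTRL and 2.74, 41.3, 16.0 and 24.0 CPM in PTX. Lyz2, a myeloid lysozyme with a near-identical neighbour copy that makes its counts uncertain, was at 15.4, 148.5, 120.5 and 150.7 CPM in CTRL and 9.57, 336.1, 116.9 and 208.9 CPM in PTX. Both genes had their lowest values in the libraries numbered 1 and their highest in PTX replicate 2, with groups that overlapped. For Lyz2 the log2 fold change was 0.63 (SE 0.85) with an edgeR adjusted p of 0.607. Lyz2 passed in 1 of 17 settings, without both libraries numbered 1 and with the block (log2 fold change 0.58, edgeR adjusted p = 0.0285). Mpeg1, which encodes the pore-forming protein perforin-2, and Laptm5, a lysosomal membrane protein, had log2 fold changes of 0.37 and 0.16.

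With the replicate number as a block, 3 members rose, Cd68, Csf1r and P2ry12, and 0 fell, against 25.7% of all tested genes that rose and 29.6% that fell in that fit. Cd68 then had an edgeR adjusted p of 4.08e-06. The other 2 calls lay close to the threshold, and neither held without the libraries numbered 1.

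Csf1r, the receptor on which microglial survival depends, was at 1.71, 10.8, 14.2 and 10.8 CPM in CTRL replicates 1 to 4 and 6.89, 21.4, 10.1 and 16.7 CPM in PTX replicates 1 to 4. PTX exceeded CTRL in 3 of 4 pairs, the pair numbered 3 being the exception, and the groups overlapped. The log2 fold change was 0.56 (SE 0.52, edgeR adjusted p = 0.444), and 0.63 with the block (SE 0.25, edgeR adjusted p = 0.0444). Without both libraries numbered 1, the fit with the block gave 0.43 (edgeR adjusted p = 0.153). Csf1, a ligand of Csf1r made largely by other cells, was at 24.4, 40.0, 51.2 and 60.9 CPM in CTRL and 21.6, 38.4, 45.5 and 55.3 CPM in PTX. Csf1 was slightly lower in PTX in every same-numbered pair, a log2 fold change of -0.13 with an edgeR adjusted p of 0.774, and of 0.113 with the block.

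P2ry12, the ADP receptor that marks resting microglia, was at 0.47, 1.68, 1.65 and 1.57 CPM in CTRL and 1.53, 2.71, 1.79 and 2.31 CPM in PTX. Without PTX replicate 1, the remaining PTX values would all lie above the CTRL values; with it, the groups overlapped. The log2 fold change was 0.63 (SE 0.37, edgeR adjusted p = 0.21), and 0.66 with the block (SE 0.26, edgeR adjusted p = 0.0429), but 0.50 (edgeR adjusted p = 0.121) with the block and without both libraries numbered 1. P2ry12 and P2ry13 lie inside Med12l, a Mediator subunit gene on the other strand, and without a stated strand setting reads of P2ry12 and Med12l cannot be told apart. Med12l moved in the opposite direction, from 66.6 ± 8.68 CPM in CTRL to 30.3 ± 2.56 CPM in PTX (SD, n = 4; log2 fold change -1.13, edgeR adjusted p = 3.62e-05).

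The pair numbered 1 set Cd68, Csf1r and P2ry12 apart from the other members. In that pair the log2 ratio of PTX to CTRL, on CPM plus 0.1, was 2.73 for Cd68, 1.95 for Csf1r and 1.51 for P2ry12, while the median over the 25 members was -0.30. In the pair numbered 2 the median was 0.88, with Csf1r at 0.98 and P2ry12 at 0.66. In the pair numbered 3 it was -0.58, with Csf1r at -0.48 and P2ry12 at 0.11, and in the pair numbered 4 it was 0.39. Cd68 was at 1.85, 1.07 and 1.42 in these 3 pairs.

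Counted over the 25 members, 10, 24, 5 and 23 were higher in PTX in the pairs numbered 1 to 4, against 43.5%, 49.3%, 46.1% and 49.5% of all tested genes. The pairs thus went in different directions, and the summed member level in PTX was 1.20, 2.08, 0.807 and 1.37 times that of CTRL in the same order. The match by number is weakest for number 3. Over all tested genes, deviations of CTRL replicate 3 correlated at 0.17 with PTX replicate 3 and at up to 0.22 with another PTX library. P2ry12, Aif1, Cd68 and Cd14 were higher in PTX in all 4 pairs, which is 4 of the 26 tested members, against 29.0% of all tested genes.

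**Figure D5:**
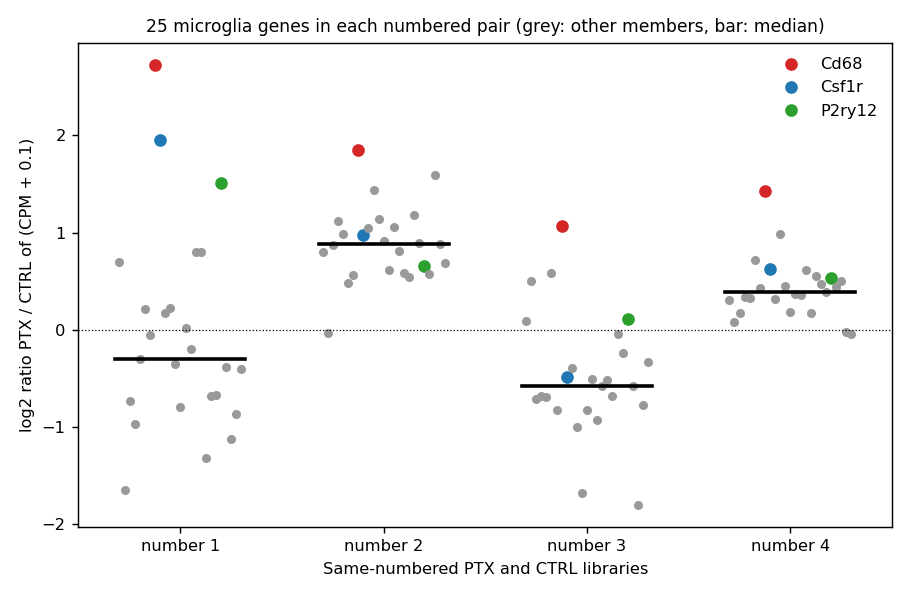
Log2 ratio of PTX to CTRL of CPM + 0.1 (vertical axis) for 25 members in each pair of same-numbered libraries (horizontal axis); points are genes, black bars are medians (-0.30, 0.88, -0.58 and 0.39). Cd68 (red) lies above the median in every pair, and Csf1r (blue) and P2ry12 (green) stand far above it in the pair numbered 1.

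Of the homeostatic surface genes, Cx3cr1, the fractalkine receptor, was at 2.06, 5.95, 12.8 and 5.88 CPM in CTRL and 2.43, 16.3, 6.34 and 11.8 CPM in PTX (log2 fold change 0.46, SE 0.59, edgeR adjusted p = 0.58). The pairs numbered 3 and 4 went in opposite directions. Fcrls, an Fc receptor-like gene of mouse microglia, had a log2 fold change of 0.23 and was lowest in both libraries numbered 1.

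The homeostatic genes with too few counts to be tested were close to the floor of detection in most libraries. Tmem119, a microglial membrane protein also described as an osteoblast induction factor, had 44, 2, 9 and 3 counts in CTRL replicates 1 to 4 and 41, 1, 4 and 3 in PTX replicates 1 to 4. It was thus highest in the 2 libraries where nearly all other members were lowest and where the fibroblast genes were high, and at 1 to 9 counts elsewhere. P2ry13, a further ADP receptor, had 5, 10, 16 and 5 counts in CTRL and 0, 14, 5 and 13 in PTX. Selplg, the P-selectin ligand, had 1, 2, 8 and 7 counts in CTRL and 0, 5, 8 and 5 in PTX. Siglech, a sialic-acid binding lectin, had 1 count in CTRL replicate 2 and 1 in PTX replicate 2, and 0 in the other 6 libraries. The label of the list therefore rested on the 25 tested members without Csf1. Siglech was at or near 0 in all 8 libraries and Tmem119 at 1 to 9 counts outside the libraries numbered 1. Border macrophage and monocyte genes were low in the same libraries numbered 1, so these values do not tell microglia from other macrophages.

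The complement genes C1qa, C1qb and C1qc, which encode the chains of C1q, moved together and did not differ beyond their spread. C1qa was at 4.42, 27.4, 27.3 and 23.7 CPM in CTRL and 2.62, 50.1, 16.7 and 26.6 CPM in PTX. Each of the 3 was higher in PTX in the pairs numbered 2 and 4 and lower in the pairs numbered 1 and 3. Their log2 fold changes were 0.22, 0.37 and 0.34, with standard errors of 0.71 to 0.74. As a share of the counts on the 29 members, C1qa made up 6.71% to 7.70% in CTRL and 3.56% to 6.59% in PTX. Trem2 made up 2.78% to 3.39% and 1.22% to 2.47%, so that for these 2 the groups did not overlap on that scale. These totals include Cd68, at 33.2% in PTX replicate 1, and a larger share of Cd68 lowers the shares of the other members. Shares without Cd68 and a background over all genes were not computed, so a fall of C1qa or Trem2 cannot be read from this.

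The genes of ITAM and Fc signalling behaved alike. Trem2, a lipid-sensing receptor of phagocytes, was at 1.71, 10.2, 10.2 and 12.0 CPM in CTRL and 0.89, 18.8, 5.93 and 11.8 CPM in PTX. Tyrobp, its signalling adaptor, was at 0.71, 6.45, 4.69 and 6.34 CPM in CTRL and 0.51, 10.4, 3.72 and 6.13 CPM in PTX. Receptor and adaptor were each higher in PTX in 1 of 4 pairs, the pair numbered 2, with overlapping groups. Fcer1g, the Fc receptor gamma chain, and Fcgr3, a receptor for IgG with similar copies that make its counts uncertain, had log2 fold changes of 0.14 and 0.17. Adjusted p in this group was at least 0.85 (edgeR).

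Among integrin and leukocyte surface genes, Cd14, the co-receptor for lipopolysaccharide, was at 0.65, 1.40, 0.75 and 0.59 CPM in CTRL and 0.77, 2.01, 1.17 and 1.03 CPM in PTX, with a log2 fold change of 0.55 (SE 0.39) and an edgeR adjusted p of 0.3. Cd14 was the member whose level varied least with the libraries numbered 1 in CTRL, and CTRL replicate 4 was its lowest CTRL library. Itgam (the CD11b integrin chain), Ptprc (CD45), Cd53 (a tetraspanin) and Ly86 (MD-1, which binds an LPS-sensing receptor homologue) had log2 fold changes of 0.35, 0.16, 0.18 and 0.08, none past the test.

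The transcription factors were measured at low counts. Spi1, which encodes PU.1, had 2, 10, 29 and 12 counts in CTRL and 0, 32, 5 and 19 in PTX. Irf8, an interferon regulatory factor needed for microglial development, was at 1.47, 2.86, 3.90 and 3.33 CPM in CTRL and 1.28, 6.07, 2.00 and 4.31 CPM in PTX. Both had overlapping groups, with log2 fold changes of 0.22 and 0.24 and edgeR adjusted p of 0.87 and 0.722. Of the cytoskeletal genes, Aif1 (Iba1, an actin-binding protein) had a log2 fold change of 0.51 (SE 0.43, edgeR adjusted p = 0.39) and was higher in PTX in 4 of 4 pairs. Apbb1ip, an adaptor for integrin activation, had one of 0.03.

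In a wider list of 40 microglia genes, 36 were tested, 1 rose and 0 fell, against 19.0% and 20.1% of all genes. The gene that rose was Hpgds, a prostaglandin D synthase, at 2.01, 14.2, 14.2 and 11.0 CPM in CTRL and 107.6, 61.6, 92.9 and 88.7 CPM in PTX (log2 fold change 3.08, SE 0.45, edgeR adjusted p = 0.000447). Hpgds was highest in PTX replicate 1, the PTX library with the lowest summed level of the microglia genes. Sall1, a transcription factor, and Blnk, a B cell adaptor also found in microglia, followed in order of p and did not pass without the block. With the block 4 of this list rose and 1 fell, against 25.7% and 29.6% of all genes. Sall1 was the one that fell, with a log2 fold change of -0.47 (edgeR adjusted p = 0.00683), and was lower in PTX in each of the 4 pairs.

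Among 26 genes of Csf1r ligands, complement and signals between neurons and microglia, 22 were tested, 0 rose and 3 fell, against 19.0% and 20.1% of all genes. Il34, the other ligand of Csf1r, was at 4.78, 4.15, 5.09 and 3.85 CPM in CTRL and 1.09, 0.47, 0.83 and 0.61 CPM in PTX (log2 fold change -2.58, SE 0.27, edgeR adjusted p = 5.33e-05). Its groups did not overlap, and the libraries numbered 1 were not its lowest. Cd200, a neuronal ligand that restrains microglia, fell by 0.92 on the log2 scale, from 168.2 to 206.2 CPM in CTRL to 82.3 to 110.0 CPM in PTX. Sirpa, the receptor for CD47, fell by 1.08, from 221.4 to 286.8 CPM to 99.4 to 145.3 CPM. With the block 2 of this list rose and 7 fell, against 25.7% and 29.6% of all genes.

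Of 26 reactive or inflammatory genes, 17 were tested, 3 rose and 0 fell, against 19.0% and 20.1% of all genes. With the block 5 rose and 0 fell, against 25.7% and 29.6%. The rises are close to these shares, so their count says nothing particular of this list. Il1a, which encodes the cytokine interleukin-1 alpha, was at 0.30, 1.68, 1.00 and 1.44 CPM in CTRL and 17.2, 25.0, 15.9 and 15.6 CPM in PTX (log2 fold change 4.06, SE 0.37, edgeR adjusted p = 2.54e-05). Il1b, the related cytokine, was at 0.18, 0.28, 0 and 0.07 CPM in CTRL and 1.60, 1.95, 1.03 and 1.34 CPM in PTX (log2 fold change 3.45, edgeR adjusted p = 0.000863). Lpl, lipoprotein lipase, rose by 0.52 (edgeR adjusted p = 0.0107). In all 3 the groups did not overlap, and PTX replicate 1 was not set apart from the other PTX libraries for Il1a and Il1b.

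Lysosomal genes that many cell types use were compared as well, since Cd68 is a lysosomal protein. All 29 were tested, 5 rose and 1 fell, against 19.0% and 20.1% of all genes, so the rises are near the background; with the block 8 rose and 4 fell, against 25.7% and 29.6%. Gla, alpha-galactosidase A, rose from 19.0 to 28.6 CPM in CTRL to 70.2 to 84.0 CPM in PTX (log2 fold change 1.76, SE 0.13, edgeR adjusted p = 7.00e-06). Smpd1, Scarb2 and Ctsl rose by 0.53, 0.53 and 0.60 on the log2 scale, and the lysosomal channel gene Mcoln1 fell by 0.77. Of 10 proliferation genes, Aurka (0.40) and Mcm2 (0.38) rose and 0 fell, against 19.0% and 20.1% of all genes. These rises are near the background too. Of the 7 tested border macrophage and monocyte genes, 1 rose and 0 fell, against the same shares. It was F13a1 (log2 fold change 1.72, edgeR adjusted p = 0.0431), with 6.55 CPM in PTX replicate 2 and 1.15 to 2.85 CPM in the other PTX libraries. With the block 2 of these 7 rose and 0 fell, against 25.7% and 29.6% of all genes.

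L3mbtl1 peaks were rare at the members. Within 2000 bp of a gene end, 1 of 30 members had a peak, Cd68, against 26.0% of the 14736 tested genes with a position. That peak, chr11:69662396-69662576 (mm10, 181 bp, authors' score 11.5), lay 1637 bp beyond the 3′ end of Cd68. It lay inside Mpdu1, near the annotated start of that gene but not reaching it. Mpdu1, a gene of dolichol-phosphate-mannose use, lies downstream of Cd68 on the same strand. Its log2 fold change was -0.07 (edgeR adjusted p = 0.753). No member had a peak inside its gene body. The next nearest was a peak 4132 bp from Tyrobp, which overlapped Nfkbid. The peak nearest to P2ry12 and P2ry13, 207663 and 199284 bp away, lay within Med12l, and for the remaining members the nearest peak was 13198 to 1246718 bp away. The peak list comes from hippocampal tissue rather than cultures, where the share of microglia is not known from these data.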

How the data were processed

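The authors deposited raw counts per gene, 1 table for each of the 8 RNA-seq libraries, and 1 list of peaks with a score. Per the labels' protocols, rRNA-depleted RNA entered ScriptSeq v2 libraries. The submitters' processing notes name build mm10 and, with no roles, Bowtie2 2.2.4, HTSeq 0.6.1, TopHat2 2.0.9 and CASAVA 1.8. Not given in the sources used here are the strand setting, the annotation, the peak caller and what the deposited score measures.

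The 5 summary lines of each table, 38.5% to 45.1% of its counts, were kept out. Counts were tested with edgeR 4.0.16 in R 4.3.3 (quasi-likelihood F test, TMM, filterByExpr, group only, Benjamini-Hochberg adjusted p under 0.05 over 15959 genes), after a check on simulated data. CPM used TMM-scaled library sizes. Pair ratios used a pseudocount of 0.1. The replicate numbers come from the sample titles, and the labels do not say that same-numbered libraries share a culture. Deviations of same-numbered libraries from their group means correlated at 0.79, 0.58, 0.17 and 0.65, each above the minimum of 0.1, so the number was also used as a block. For number 3 the best correlation with another number, 0.22, was higher than with its own. No library was a copy, as chi-square divided by its degrees of freedom was at least 10.3 within each group.

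Alternatives were the block, RLE size factors, DESeq2 1.42.0, no low-count filter, each library left out, both libraries numbered 1 left out, and library sizes from the summed members. Peaks were set against RefSeq gene positions (GRCm38.p6). All members are named; of other lists, the 3 smallest p and called genes where 5 or fewer were called. Values of 1 gene that this rule names are not reported here. The members and lists were chosen with earlier results of these data known. Counting error limits members with few counts.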

Additional observations from a re-analysis of the deposited data

Results flagged for a closer look

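In CTRL replicate 1, the lowest value lay far below the other 3 CTRL libraries, by the gap set against the group's range, for 9 members and for the summed level. These were P2ry12 (0.47 CPM), Aif1 (0.35 CPM), Cd68 (3.60 CPM), C1qa (4.42 CPM), C1qc (2.06 CPM), Fcrls (1.77 CPM), Ctss (2.42 CPM), Laptm5 (0.47 CPM) and Mpeg1 (3.42 CPM), and the summed level of the members without Csf1 (61.0 CPM). In all, 56 groups of 4 libraries were looked at and 10 stood out, each through CTRL replicate 1. Chance flags about 1 in 20 such groups, but the low level of the libraries numbered 1 was known before these groups were looked at. The members also share the same libraries, so the 10 are not independent and cannot be read against that rate. PTX replicate 1 stood out for none.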

How the results depend on the processing

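No member fell in any of the 17 settings, and Cd68 rose in all but 1. The count of members that rose was 1 in the main comparison, against 19.0% of all genes, and 3 with the replicate block, against 25.7%. With the block and without both libraries numbered 1 it was 2 of 27 tested members, where 4203 of 16056 genes rose. It was 0 with library sizes from the summed members. That last scaling moved the median log2 fold change of all genes from -0.03 to -0.34, and its calls over all genes from 3034 higher and 3214 lower to 76 higher and 8 lower (764 and 2518 with the block, median -0.41). Groups did not overlap for 1 member, for 2 without both libraries numbered 1, and for 1 to 2 with 1 library left out. Over all tested genes the share was 38.0% with all 8 libraries. This share was not computed with libraries left out, so those counts cannot be set against a background. Within 1000 bp a peak lay near 0 members, against 24.4% of the tested genes with a position. Within 5000 bp a peak lay near 2, Cd68 and Tyrobp, against 28.4%. With library sizes from the summed members, adding the replicate block brought the count of members that rose to 1, Cd68.

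No member was called in a setting that changed its sign; Lyz2, which changed sign below, was called without both libraries numbered 1 and with the block (0.58). The log2 fold change turned negative with the replicate block for Trem2 -0.0046, Fcgr3 -0.0031 and Apbb1ip -0.017. With library sizes from the summed members it turned negative for Cx3cr1 -0.024, Ptprc -0.41, C1qa -0.44, C1qb -0.35, C1qc -0.26, Tyrobp -0.38, Trem2 -0.52, Fcer1g -0.49, Fcgr3 -0.55, Fcrls -0.23, Ctss -0.073, Laptm5 -0.14, Cd53 -0.34, Mpeg1 -0.26, Ly86 -0.61, Spi1 -0.56, Irf8 -0.34, Apbb1ip -0.66 and Lyz2 -0.012. With the block added to that scaling it was negative for Ptprc -0.35, C1qa -0.45, C1qb -0.36, C1qc -0.27, Tyrobp -0.36, Trem2 -0.52, Fcer1g -0.44, Fcgr3 -0.48, Fcrls -0.24, Ctss -0.074, Laptm5 -0.17, Cd53 -0.34, Mpeg1 -0.24, Ly86 -0.49, Spi1 -0.36, Irf8 -0.28, Apbb1ip -0.47 and Lyz2 -0.12. Leaving out 1 library gave log2 fold changes with both signs: Apbb1ip -0.22 to 0.45, C1qa -0.46 to 0.63, C1qb -0.33 to 0.79, C1qc -0.33 to 0.75, Cd53 -0.39 to 0.58, Csf1 -0.29 to 0.11, Ctss -0.16 to 0.83, Fcer1g -0.53 to 0.57, Fcgr3 -0.48 to 0.55, Fcrls -0.11 to 0.60, Irf8 -0.20 to 0.55, Laptm5 -0.20 to 0.54, Ly86 -0.20 to 0.49, Mpeg1 -0.10 to 0.77, Ptprc -0.29 to 0.51, Spi1 -0.55 to 0.82, Trem2 -0.48 to 0.55 and Tyrobp -0.42 to 0.61. The cause of these changes was not tested. Depth limits P2ry13, Selplg, Siglech, Tmem119, Apbb1ip and Spi1, which had 68, 36, 2, 107, 98 and 109 counts over all libraries.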
